A study of Mus musculus with 6 samples.

Results

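The replication-dependent histone genes make the bulk of the histones that package newly copied DNA, and they lie in the clusters Hist1 to Hist4 of the mouse genome. They were taken as every row of the deposited gene table whose symbol begins with Hist1h, Hist2h, Hist3h or Hist4h, which gave 56 of 13935 genes. By family these were 5 genes for the linker histone H1, 13 for H2A, 16 for H2B, 10 for H3 and 12 for H4. By cluster, 46 were Hist1 genes on chromosome 13, 6 were Hist2 genes on chromosome 3, 3 were Hist3 genes on chromosome 11 and 1 was the Hist4 gene on chromosome 6. One of the Hist3 genes, Hist3h2bb-ps, is annotated as a pseudogene.

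RNA had been sequenced from mouse long-term hematopoietic stem cells (LT-HSCs), rare bone marrow cells from which all blood is renewed, in 3 wild-type libraries (replicates 1 to 3) and 3 libraries labelled as Mel18 knockout (replicates 4 to 6). Mel18, encoded by Pcgf2, belongs to polycomb repressive complex 1, which places ubiquitin on histone H2A. Each label names 1 mouse. The series' description calls the knockout conditional in the hematopoietic system and the cells sorted, and the table's header calls the comparison one of Cre+ against Cre- cells, so effects of Cre itself and of the deletion cannot be told apart. The Cre driver, the deleted exons, the sorting gate, any pooling, and the age, strain and sex of the mice are not stated in the labels. Nothing says that the libraries had separate handling beyond the mice, so p-values measure the spread between these 6 libraries.

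Pcgf2, the targeted gene, had 1.47, 2.61 and 1.70 CPM (counts relative to the library total, scaled by TMM factors) in the wild-type libraries and 1.88, 1.88 and 3.36 CPM in the libraries labelled knockout. It was therefore not lower in the latter, and a count summed over all exons cannot tell whether the deleted ones are still transcribed. Directions below are for the libraries labelled knockout. Totals were between 26469336 and 37180701 counts, so that 3 counts correspond to 0.0782 to 0.115 CPM. The 11 LT-HSC markers summed to 907 to 1843 CPM in wild type and 1733 to 2647 CPM in the libraries labelled knockout, ranges that overlap. Gene by gene, 0 of the 11 had a negative log2 fold change (libraries labelled knockout minus wild type), and their median was 0.95. For 4 of them the groups did not overlap, all higher, where 10.1% of all genes did so. By edgeR's quasi-likelihood test 1, Procr, passed an adjusted p of 0.05, as did 0.143% of all genes. The 12 markers of lineage-primed progenitors summed to 5537 to 12884 against 163 to 712 CPM, with no overlap. Much of that sum was Mpo, at 3672 to 8710 CPM in wild type. Of the 12, 11 had negative log2 fold changes, and 2 passed the adjusted line. Klf1 had a positive value of 0.62. For 8 the groups did not overlap, all lower, where 11.3% of all genes did so. The 6 listed B and T cell markers summed to 27.5 to 168 against 4.49 to 5.61 CPM, with Tcf7 at 0 in every library labelled knockout. Their part in the histone values was not tested. In bulk samples, fewer cells of a type and less RNA per cell cannot be told apart.

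Histone genes of the clusters are copied in S phase, when DNA is replicated, and most have no introns. Their mRNAs end just after a short stem-loop in place of a poly(A) tail. The stem-loop binding protein Slbp, the U7 snRNP with its subunits Lsm10 and Lsm11, and a cleavage complex form that end, while Npat, a target of cyclin E and Cdk2, switches on transcription at the clusters. Some of these genes also give polyadenylated transcripts that run past the stem-loop, and such transcripts are known from differentiated or non-dividing cells. The kit used here, SMART-Seq v4, copies RNA from its poly(A) tail with an oligo(dT) primer, so the counts report polyadenylated or otherwise primed histone RNA and not the whole histone mRNA pool.

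The stem-loop is shown because it is the sequence at which these mRNAs are cut in place of gaining a tail. A stem-loop was searched for between the stop codon and the transcript end in GENCODE M21 transcripts (GRCm38) and was found for 38 members, 21 to 54 bases after the stop codon (median 31). Of these, 20 carried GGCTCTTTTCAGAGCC and 6 carried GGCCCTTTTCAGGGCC. For 16 members an annotated transcript ran more than 200 bases past the stem-loop. For 22 the transcripts that hold it ended nearer to it. Transcripts in which no stem-loop was found were left out of this measure. Hist1h2bp, one of the 22, has 2 annotated transcripts, and its gene model in the authors' table ends 1275 bases past the stem-loop. For 18 members none was found in the annotated transcripts. These can be shorter than the authors' gene models, as for Hist1h2bn (381 against 431 bases), so a stem-loop beyond them would be missed. Hist2h2be and Hist1h2bc, with transcripts of 2620 and 1156 bases, are also among the 18. Examples follow, read 5′ to 3′ with the stem-loop in capitals. The first 4 genes have an annotated transcript more than 200 bases past it. In the last 5 the transcripts that hold it end within 200 bases of it.
Hist1h1c (chr13:23739512-23739527, plus strand): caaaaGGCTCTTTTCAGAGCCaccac
Hist1h1e (chr13:23621782-23621797, minus strand): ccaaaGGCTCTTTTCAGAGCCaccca
Hist3h2a (chr11:58955172-58955187, plus strand): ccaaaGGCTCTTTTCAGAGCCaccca
Hist1h4d (chr13:23581950-23581965, plus strand): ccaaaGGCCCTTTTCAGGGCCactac
Hist1h2ae (chr13:23570668-23570683, minus strand): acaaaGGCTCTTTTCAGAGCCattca
Hist1h2bg (chr13:23571843-23571858, plus strand): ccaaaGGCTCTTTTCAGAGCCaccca
Hist1h2bp (chr13:21787923-21787938, plus strand): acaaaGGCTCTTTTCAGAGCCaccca
Hist1h2bm (chr13:21722506-21722521, plus strand): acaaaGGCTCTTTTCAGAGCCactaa
Hist1h2bk (chr13:22036300-22036315, plus strand): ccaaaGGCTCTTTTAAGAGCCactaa
Hist1h1c, Hist1h1e and Hist3h2a, of the first set, carry the same 16 letters as Hist1h2ae, Hist1h2bg, Hist1h2bp and Hist1h2bm, of the second. In the authors' table, 34 of the 38 gene models end within 20 bases of the stem-loop, so reads from beyond it would not be counted for those genes.

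Close copies limit the counts gene by gene. Stretches of 50 bases were taken from a member's annotated transcripts where they lie within its gene model in the authors' table. A median of 59.4% of a member's stretches also occurred in transcripts of another gene, and 37 members shared more than 50%. Only Hist1h1a, Hist1h1b, Hist2h2be and Hist4h4 shared none. How reads that map to several places were counted is not stated in the labels or the table, so levels of single H2A, H2B, H3 and H4 genes are uncertain where copies are near-identical. The libraries do not mark strand, and several H2A genes overlap an annotated miRNA gene model over 24.7% to 31.5% of their bases.

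All 56 members had counts in each wild-type library, against 49, 53 and 54 in replicates 4, 5 and 6. Together they made up 0.0585%, 0.0553% and 0.0568% of the counts in wild type and 0.0484%, 0.0445% and 0.0653% in the libraries labelled knockout. Per length, in RPKM (CPM per kilobase of the table's exon length), Hist1h1c was highest at 127 on average over the 6 libraries. It was followed by Hist1h2ae at 112, Hist3h2a at 85.6, Hist1h2bc at 84.3, Hist1h2bg at 69.2 and Hist1h4d at 62.5 RPKM. The highest H3 gene was Hist1h3e at 25.3 RPKM. The median member was at 4.72 RPKM, and 6 members stayed under 1 RPKM. At the foot was Hist1h2af, an H2A gene, at 0.303 RPKM.

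Across all members, the summed level was 603, 562 and 555 CPM in wild type and 469, 428 and 689 CPM in the libraries labelled knockout. This gives a mean of 573 ± 26.2 CPM in wild type (SD, n = 3) and 528 ± 140 CPM in the others (SD, n = 3). Replicates 4 and 5 lay below every wild-type library and replicate 6 above every one, so the groups overlapped. The title of replicate 6 carries a library number far from the consecutive numbers of the other 5 libraries, and what that number marks is not stated. Replicate 6 was the highest of the 6 libraries for 17 of 52 tested members (32.7%), near the 26.0% of all genes for which it was the highest. It was the lowest for 9 members (17.3%), against 29.5% of all genes. Replicates 4 and 5 were each the lowest for 18 members (34.6%), against 19.2% and 12.1% of all genes. The median deviation of a member from its wild-type mean, in log2(CPM + 0.5), was -0.79 and -0.77 in replicates 4 and 5 and -0.02 in replicate 6. Over all genes tested the same median was between -0.05 and 0.02 in every library.

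**Figure D1:**
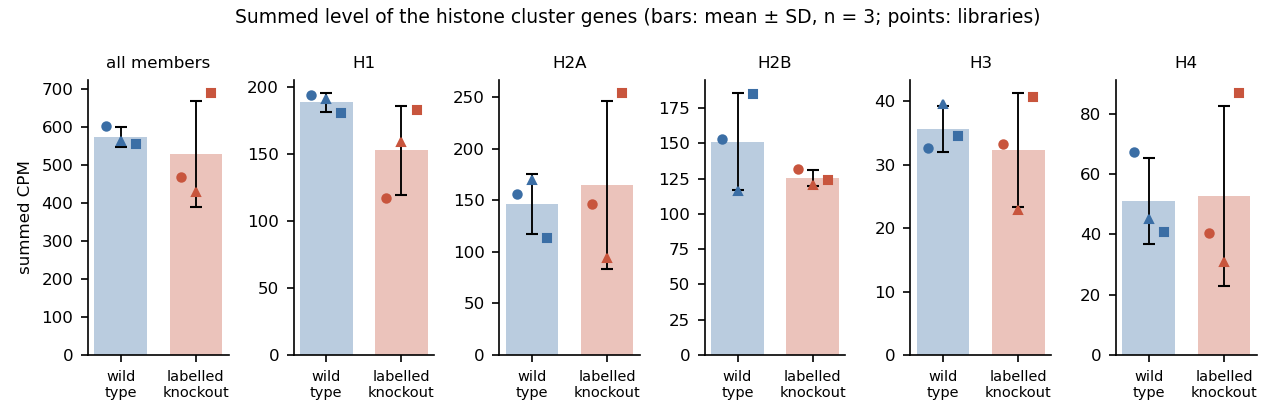
Summed CPM of all histone cluster genes and of each family, with libraries as points and bars as mean ± SD (n = 3). Replicate 6, the square among the libraries labelled knockout, is the highest library for all members together (689 CPM), for H2A, H3 and H4, while H2B holds its libraries labelled knockout between 120 and 132 CPM.

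The H1 sum was 194, 191 and 181 CPM in wild type and 117, 159 and 183 CPM in the libraries labelled knockout. The H2A sum was 156, 169 and 113 against 146, 94.3 and 254 CPM. The H2B sum was 153, 116 and 185 against 132, 120 and 124 CPM. H2A, H3 and H4 were highest in replicate 6, and no family separated the groups. The H3 sum was 32.6, 39.6 and 34.5 against 33.3, 22.8 and 40.7 CPM, and the H4 sum 67.4, 45.2 and 40.9 against 40.5, 31.0 and 86.8 CPM.

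Genotype was tested over the whole table with edgeR's quasi-likelihood test and Benjamini-Hochberg adjustment over 12603 genes, of which 52 were members. The remaining 4, Hist1h2af, Hist1h3h, Hist1h4a and Hist1h4k, had too few counts for filterByExpr, edgeR's filter. No member passed an adjusted p of 0.05, a line that 0.143% of all genes tested passed. At an unadjusted p below 0.05 there was 1 member, Hist1h2bg, or 1.92% of those tested, against 11.9% of all genes. Lower values at that line made up 6.51% and higher ones 5.36% of all genes. DESeq2, edgeR's likelihood ratio test and limma-voom also called 0 members, while they called 4.21%, 3.43% and 0.0% of all genes. At an unadjusted p below 0.05 they had 3, 4 and 3 members, all lower, where 7.71%, 7.32% and 8.43% of all genes were lower at that line.

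Fitted values leaned to the lower side without passing the test. Of the 52 tested members, 36 (69.2%) had a negative log2 fold change (libraries labelled knockout minus wild type), against 50.4% of all genes tested. The median was -0.58, against -0.01 over all genes. The 3 libraries labelled knockout all lay below the 3 wild-type libraries for 11 members (21.2%), where 11.3% of all genes did so, and all above for 0 members, where 10.1% of all genes did so. Without replicate 6, 55 members were tested, 46 had a negative value and the median was -0.99. Then 2 members, Hist1h1b and Hist1h2bp, were lower at an unadjusted p below 0.05, as were 7.81% of all genes. Still 0 members passed the adjusted threshold, which 0.373% of all genes passed. The standard error of a member's log2 fold change was between 0.28 and 2.37 (median 1.11), so the precision for single genes was low.

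**Figure D2:**
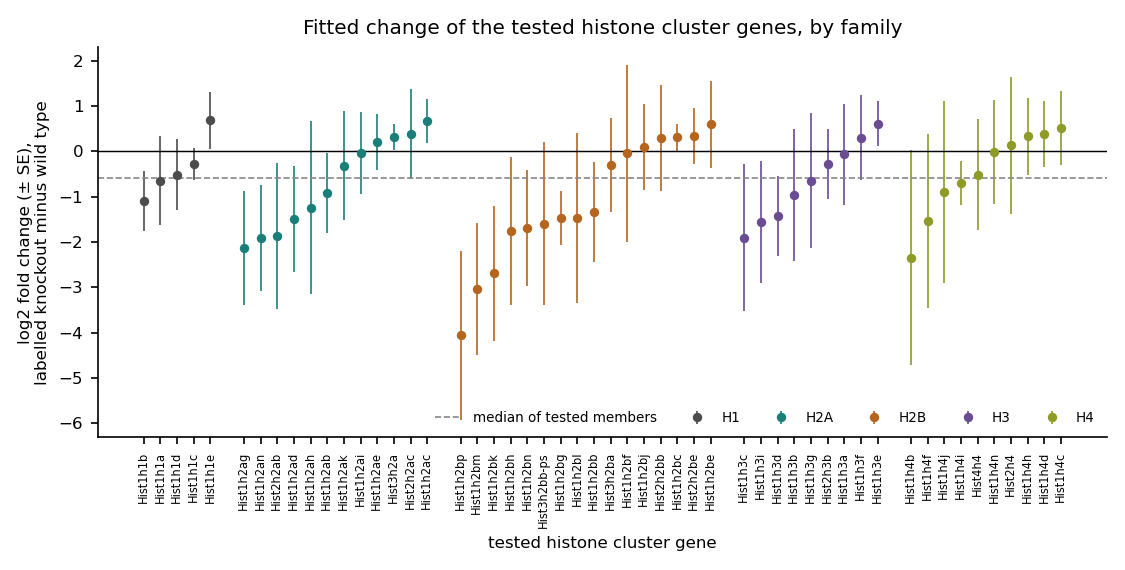
Fitted log2 fold change with its standard error for the 52 tested members, ordered within each family. Values reach from -4.06 (Hist1h2bp) to 0.69 (Hist1h1e), the H2B genes spread widest, and the dashed line is the members' median of -0.58.

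Members differed by how abundant they were. The 16 with a mean of at least 5 CPM had a median log2 fold change of 0.26 with 7 negative, and the 36 below 5 CPM had a median of -1.10 with 29 negative. Among all genes tested the medians on the same sides of that line were -0.01 and 0.02. For genes that were both under 5 CPM and no longer than 700 bases, the median over 172 genes was -0.36 and 63.4% were negative. Most of the low histone genes are themselves among these 172, so this background is not independent of them. The split at 5 CPM was chosen after the values were seen. Without replicate 6 the medians were -0.38 from and -1.31 below 5 CPM, and without wild-type replicate 3 the former was -0.03.

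H1 genes encode the linker histones that sit where DNA enters and leaves the nucleosome. Of 5 tested genes 4 had negative values, and their median log2 fold change was -0.51. Hist1h1c, the most abundant member, had 106, 75.9 and 122 CPM in wild type and 95.1, 109 and 46.6 CPM in the libraries labelled knockout. Only replicate 6 lay below the wild-type range, and the log2 fold change was -0.28 (SE 0.35, edgeR quasi-likelihood adjusted p = 0.823). Hist1h1b, an H1 gene whose transcripts share no stretch with another gene, had 48.1, 72.6 and 28.6 CPM in wild type and 7.30, 16.5 and 46.4 CPM in the libraries labelled knockout. Replicates 4 and 5 were under every wild-type library, and replicate 6 was not. The log2 fold change was -1.09 (SE 0.66, edgeR adjusted p = 0.565), and without replicate 6 it was -2.07 (SE 0.54, adjusted p = 0.175). Hist1h1e had 22.3, 26.5 and 17.3 CPM in wild type and 12.2, 22.5 and 71.6 CPM in the libraries labelled knockout. Replicate 4 lay below and replicate 6 above the wild-type range, and the log2 fold change was 0.69 (SE 0.62), or -0.34 without that library. Hist1h1a and Hist1h1d, named after their values were seen, had values of -0.64 and -0.51.

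H2A genes encode the core histone that carries the ubiquitin placed by polycomb repressive complex 1. Of 12 tested genes 8 had negative values (median -0.62). Hist1h2ae had 64.8, 79.9 and 28.8 CPM in wild type and 50.3, 22.8 and 127 CPM in the libraries labelled knockout. Replicate 5 was the lowest and replicate 6 the highest library, with a log2 fold change of 0.20 (SE 0.62), or -0.66 without replicate 6. Hist3h2a, the H2A gene of the Hist3 cluster, had 35.5, 44.04 and 36.5 CPM in wild type and 50.4, 41.3 and 53.3 CPM in the libraries labelled knockout. Replicate 5 lay inside the wild-type range, and the value of 0.32 had the smallest error of all members (SE 0.28, edgeR adjusted p = 0.706). Every compared stretch of Hist3h2a is also part of an annotated transcript of Trim17, so reads may belong to either. Hist1h2ac had 22.8, 11.7 and 24.6 CPM in wild type and 33.4, 16.7 and 44.2 CPM in the libraries labelled knockout. Replicate 5 lay within the wild-type range, and the log2 fold change was 0.67 (SE 0.48).

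Among the low H2A genes, named here after their values were seen, Hist1h2ag had 4.73, 2.88 and 2.18 CPM in wild type and 0.469, 1.28 and 0.472 CPM in the libraries labelled knockout. Hist1h2an had 3.57, 3.49 and 2.59 CPM against 0.860, 0.757 and 0.943 CPM. For both, every library labelled knockout lay below every wild-type library. Their log2 fold changes were -2.13 (SE 1.25) and -1.91 (SE 1.17), with edgeR adjusted p = 0.553 and 0.571. More than 80% of the stretches of each, 82.3% and 85.8%, also occur in other genes. Hist1h2ag and Hist1h2an were the only 2 of 12 tested H2A genes whose groups did not overlap. Of the 8 tested H2A genes under 5 CPM, 7 had negative values, with a median of -1.36. Among these 8, Hist1h2ai had -0.04, Hist1h2ak -0.31 and Hist2h2ac 0.38, each with overlapping groups.

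H2B genes encode the partner of H2A in the nucleosome's dimers. They had the lowest family median, -1.40, with 11 of 16 negative, and the only member at an unadjusted p below 0.05. Without replicate 6 the families lay close together, with medians of -0.99 (H1), -1.04 (H2A), -1.06 (H2B), -1.06 (H3) and -0.78 (H4). The gene at that line, Hist1h2bg, had 37.3, 24.1 and 80.1 CPM in wild type and 17.6, 26.1 and 7.42 CPM in the libraries labelled knockout. Replicate 5 lay within the wild-type range, so the groups overlapped. Its log2 fold change of -1.47 (SE 0.59) had an edgeR adjusted p = 0.380 and ran from -1.91 to -0.86 as single libraries were left out. Hist1h2bc, of which Hist1h2bg is a close copy, had 70.4, 45.2 and 59.4 CPM in wild type and 90.04, 69.4 and 57.2 CPM in the libraries labelled knockout. Its log2 fold change was 0.31 (SE 0.29), of the opposite sign. Hist2h2be had 16.8, 9.40 and 12.6 CPM in wild type and 6.57, 13.0 and 29.3 CPM in the libraries labelled knockout. None of its compared stretches occurs in another gene. The log2 fold change of Hist2h2be was 0.33 (SE 0.61), or -0.40 without replicate 6.

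The most negative values of all belonged to H2B genes with few counts, also named after their values were seen. Hist1h2bp had 114, 146 and 77 counts in wild type and 0, 2 and 21 in replicates 4, 5 and 6. Hist1h2bm had 40, 99 and 54 counts against 11, 5 and 13, and Hist1h2bk had 60, 82 and 68 counts against 9, 3 and 26. In all 3 genes the groups did not overlap. The log2 fold changes were -4.06 (SE 1.86) for Hist1h2bp, -3.04 (SE 1.45) for Hist1h2bm and -2.69 (SE 1.49) for Hist1h2bk, with edgeR adjusted p of 0.446, 0.457 and 0.525. Hist1h2bb also lay lower in every library labelled knockout, at 1.77, 1.38 and 0.912 CPM against 3.94, 2.92 and 3.44 CPM.

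H3 and H4 genes encode the histones of the nucleosome's central tetramer. For H3, 7 of 9 tested genes had negative values (median -0.65), and for H4 6 of 10 (median -0.26). Hist1h3e had 8.88, 8.79 and 10.6 CPM in wild type and 18.4, 9.47 and 15.3 CPM in the libraries labelled knockout. Replicates 4 and 6 lay above the wild-type range, and the log2 fold change was 0.61 (SE 0.50). Hist1h3d had 6.82, 7.06 and 7.03 CPM in wild type and 1.02, 3.89 and 2.86 CPM in the libraries labelled knockout. Its groups did not overlap, the wild-type libraries were nearly equal, and the log2 fold change was -1.43 (SE 0.89, edgeR adjusted p = 0.576). Hist2h3b had 4.18, 7.86 and 5.14 CPM against 5.01, 3.89 and 5.34 CPM, with overlapping groups and a value of -0.27 (SE 0.77). Of its compared stretches 100% occur in another gene, mainly Gm20628, which overlaps it, so reads may belong to either.

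Hist1h4d, the H4 gene with the highest level per length, had 29.4, 19.0 and 11.4 CPM in wild type and 12.4, 8.87 and 56.9 CPM in the libraries labelled knockout. Replicate 6 was the highest and replicate 5 the lowest of all libraries, and the log2 fold change was 0.39 (SE 0.73), or -0.90 without replicate 6. Hist1h4i had 17.1, 14.3 and 10.7 CPM in wild type and 8.16, 9.68 and 7.95 CPM in the libraries labelled knockout. It was the only one of the 3 H4 genes with the most counts whose groups did not overlap, at a log2 fold change of -0.70 (SE 0.49, edgeR adjusted p = 0.622). Hist1h4c had 5.73, 2.57 and 4.19 CPM against 5.71, 4.25 and 7.95 CPM, with overlapping groups and a value of 0.52 (SE 0.81).

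**Figure D3:**
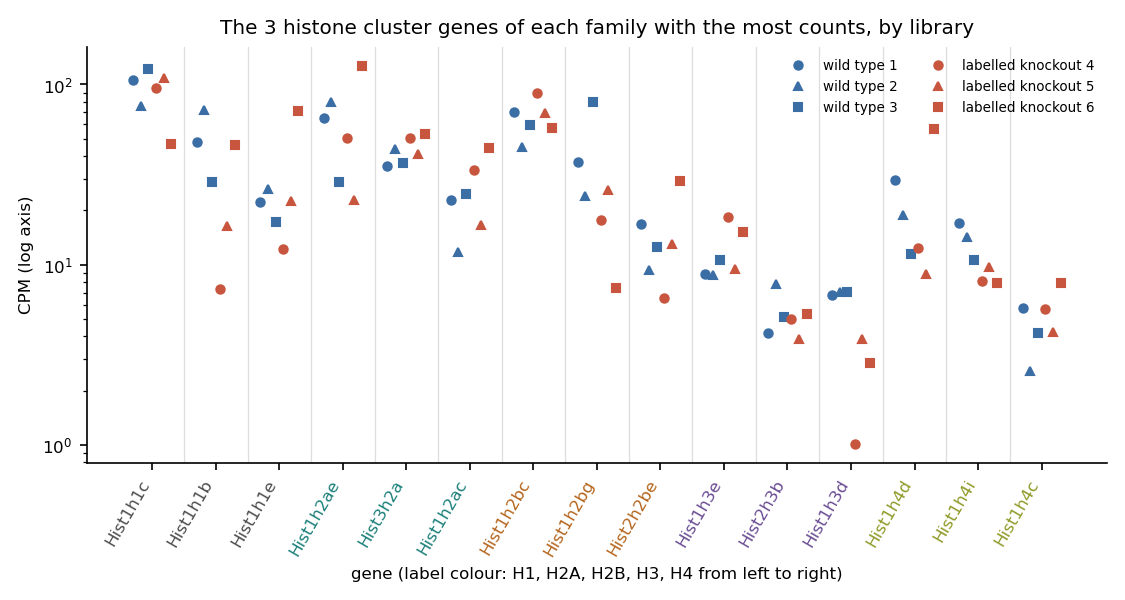
CPM (log axis) in each library for the 3 genes of each family with the most counts, ordered by level per length within the family. Hist1h4i and Hist1h3d have all libraries labelled knockout below all wild-type ones, while Hist1h1e, Hist1h2ae and Hist1h4d have their highest value in replicate 6; heights are not scaled by length and do not compare genes.

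Along chromosome 13 (mm10), the Hist1 genes form a pair of blocks. The first holds 18 members between 21715713 and 22043658, and the second holds 28 between 23531044 and 23764412. In the first block 15 of 16 tested members had negative values, with a median log2 fold change of -1.35. The exception, named after its value was seen, was Hist1h2bj at 0.09, or -0.67 without replicate 6. In the second block 16 of 26 were negative and the median was -0.40. Summed levels of the first block were 103, 128 and 70.0 CPM in wild type and 28.7, 38.4 and 82.4 CPM in the libraries labelled knockout. By this sum replicate 6 lay inside the wild-type range. Hist1h1b alone gave 48.1, 72.6 and 28.6 CPM of it in wild type and 7.30, 16.5 and 46.4 CPM in replicates 4, 5 and 6. The median deviation of the block's 16 tested members from the wild-type mean was -1.42, -1.05 and -0.63 in replicates 4, 5 and 6. The second block summed to 430, 355 and 416 against 366, 323 and 495 CPM. Of the first block's members 14 of 16 lay under 5 CPM, and under 5 CPM the medians of the blocks were -1.51 (14 genes) and -0.96 (15 genes). Without replicate 6 the block medians were -1.66 and -0.95, and without replicate 4 the first block's was -0.77. The Hist2 genes had a median of 0.21 over 6 genes, or -0.62 without replicate 6. The Hist3 genes had a median of -0.31 over 3 genes, or 0.15 without wild-type replicate 2, and the only Hist4 gene a value of -0.51. The difference between blocks was not tested.

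**Figure D4:**
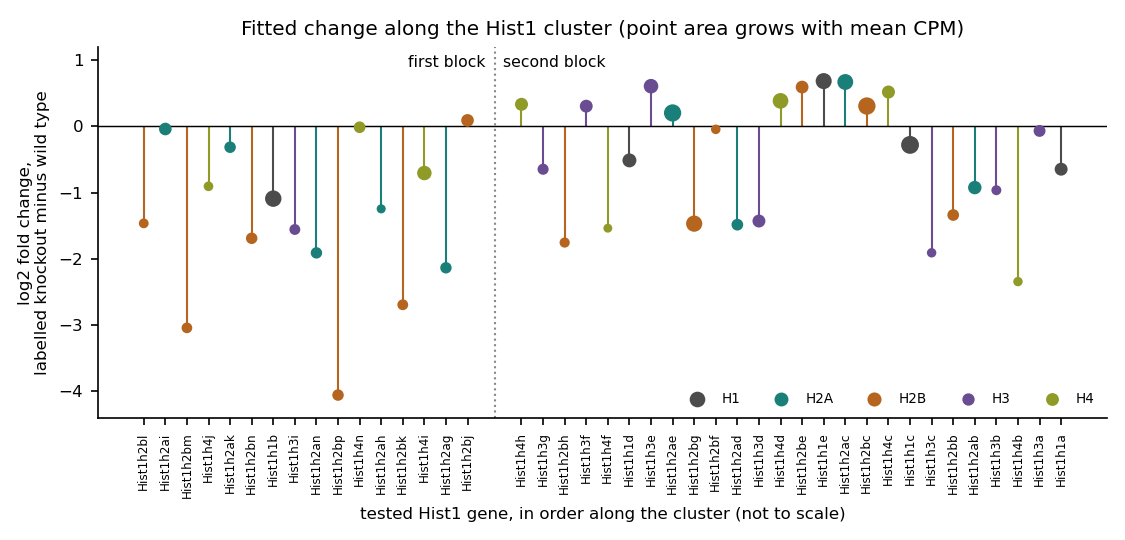
Fitted log2 fold change of the 42 tested Hist1 genes in their order along the cluster, with point area growing with mean CPM. The first block lies below 0 but for Hist1h2bj, and the positive values of the second block sit mostly on large points, the more abundant genes.

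The fitted values were also compared by the annotated end of the transcript. The 16 members with a transcript past the stem-loop had a median log2 fold change of 0.22, with 7 negative and 9 positive. The 21 tested members whose transcripts holding it end near it, Hist1h2bp among them, had a median of -0.96, with 17 negative. Those for which no stem-loop was found, in part because the annotated transcripts are short, had a median of -1.09, with 12 of 15 negative. In replicates 4 and 5 the genes ending near the stem-loop stood at a median deviation of -0.87 and -0.90 from the wild-type mean, and the genes with long transcripts at -0.31 and -0.29. In replicate 6 the same medians were -0.20 and 0.57. Among genes with long transcripts 9 of 16 had a mean of at least 5 CPM, against 3 of 21 of those ending near the stem-loop, so this split overlaps with that by abundance. Under 5 CPM the medians were -0.51 over 7 genes and -1.15 over 18. Without replicate 6 the genes with long transcripts had a median of -0.34 and those ending near the stem-loop -1.12, and under 5 CPM the medians were -1.25 and -1.22. The split was chosen after the values were seen and was not tested. By the table's exon length, 10 genes above 700 bases had a median of 0.15 and 42 shorter ones a median of -0.91, while over all genes tested the medians were -0.01 and 0.39 (443 shorter genes, 33.2% negative). Without replicate 6 the members' medians were -0.37 and -1.11.

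**Figure D5:**
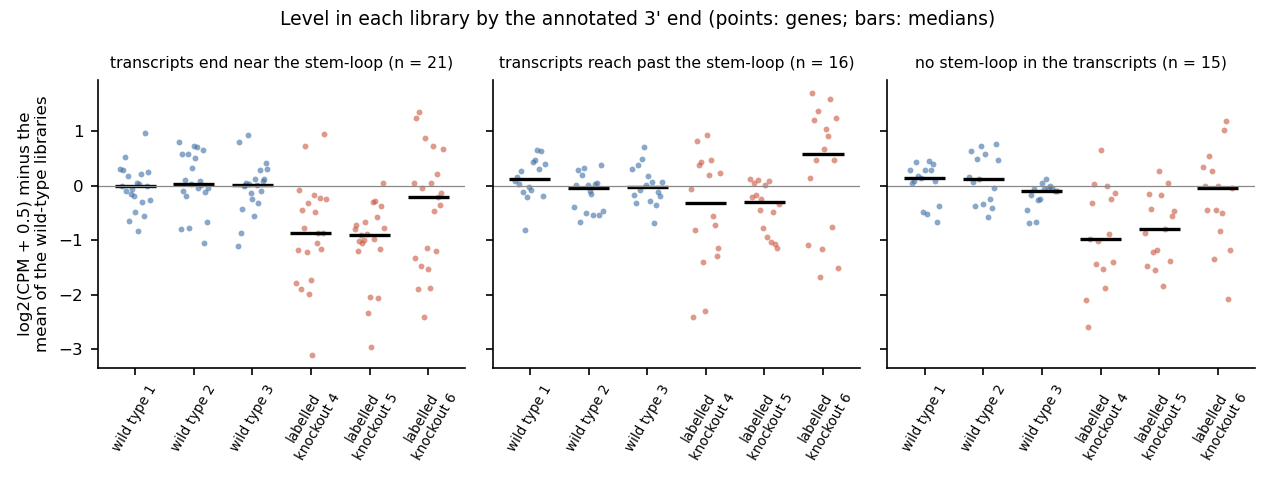
Level of each tested member in each library as log2(CPM + 0.5) minus the mean of the wild-type libraries. Panels split members by whether the annotated transcripts that hold a stem-loop end near it or run past it, or none was found. Medians in replicates 4 and 5 are -0.87 and -0.90 in the left panel and -0.31 and -0.29 in the middle one, where replicate 6 has a median of 0.57.

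H2A and H2B genes often stand head to head and share the stretch between their starts. There were 10 such pairs with both genes tested, 172 to 280 bases apart. Both values were negative in 5 pairs, both positive in 2 and of opposite signs in 3. Hist1h2an and Hist1h2bp, 269 bases apart, were both negative at -1.91 and -4.06. Hist1h2ac and Hist1h2bc, 239 bases apart, were both positive at 0.67 and 0.31. Hist1h2ae and Hist1h2bg, 179 bases apart, went opposite ways at 0.20 and -1.47. Without replicate 6 both values were negative in 7 pairs, both positive in 1 and of opposite signs in 2. Hist1h2ae and Hist1h2bg then had -0.66 and -1.11. Genes of these pairs outside the naming rule were named after their values were seen.

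The start regions are shown for Hist1h1b, Hist1h2bg and Hist1h4i, members with values described above, and for Hist1h2bp, the most negative one. They come from RefSeq's GRCm38.p6 promoters, which were matched for 50 members. Each line ends at the base before the transcript start, reads 5′ to 3′ on the gene's strand, and has in capitals the CCAAT box (CCAAT), the TATA box (TATAAA), the octamer of histone promoters (ATTTGCAT), the H1 box (AAACACA) and the core of the site for the H4 regulator Hinfp (GGTCCG), on either strand.
Hist1h1b (chr13:21780626-21780805, minus strand): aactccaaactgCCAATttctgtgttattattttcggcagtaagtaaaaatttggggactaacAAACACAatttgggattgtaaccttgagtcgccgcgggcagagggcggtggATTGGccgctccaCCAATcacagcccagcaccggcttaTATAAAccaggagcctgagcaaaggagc
Hist1h2bg (chr13:23571221-23571399, plus strand): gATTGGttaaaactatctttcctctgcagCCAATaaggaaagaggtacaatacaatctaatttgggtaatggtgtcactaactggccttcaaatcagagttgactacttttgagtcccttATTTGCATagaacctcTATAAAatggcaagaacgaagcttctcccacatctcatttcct
Hist1h2bp (chr13:21787238-21787487, plus strand): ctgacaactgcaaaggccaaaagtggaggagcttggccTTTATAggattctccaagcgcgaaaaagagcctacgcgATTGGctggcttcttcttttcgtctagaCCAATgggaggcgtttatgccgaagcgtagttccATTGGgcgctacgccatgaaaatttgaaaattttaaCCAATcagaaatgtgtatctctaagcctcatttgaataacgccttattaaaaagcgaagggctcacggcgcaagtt
Hist1h4i (chr13:22041363-22041542, minus strand): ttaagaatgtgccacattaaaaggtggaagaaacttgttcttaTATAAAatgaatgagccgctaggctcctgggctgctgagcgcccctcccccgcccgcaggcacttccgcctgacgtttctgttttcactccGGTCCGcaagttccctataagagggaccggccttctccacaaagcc
The stretch of Hist1h2bg is the whole space between it and Hist1h2ae.

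Over windows from 250 bases before to 50 after the start, CCAAT occurred in 84.0% of the members' promoters and in 37.4% of all 32851 promoters in the table. It was in all 13 H2A, all 13 H2B, all 8 H3 and all 5 H1 promoters matched, and in 3 of 11 H4 promoters. TATAAA occurred in 62.0% of the members' promoters and in 13.6% of all. Matches counted on either strand and at any place in the window, so 1 match can count for both genes of a head-to-head pair. The TATAAA of Hist1h2bp lies on the opposite strand, 212 to 207 bases before its start. That of Hist1h4i lies 137 to 132 bases before its start. The octamer ATTTGCAT was in 6 H2A and 6 H2B promoters and in none of the others, against 1.74% of all promoters. AAACACA was in 4 of 5 H1 promoters, against 7.18% of all, and GGTCCG in 10 of 11 H4 promoters, against 8.25% of all. The 12 tested genes with the octamer had a median log2 fold change of -0.36 and the 34 without it -0.67. For TATAAA the medians were -0.94 over 28 genes with it and -0.27 over 18 without. For CCAAT they were -0.65 over 39 and -0.70 over 7. For AAACACA they were -0.72 over 6 and -0.67 over 40, and for GGTCCG -0.70 over 11 and -0.65 over 35. These splits were not tested. These matches are letters in a window and do not show binding.

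Other genes of the histone pathway came from lists of replacement variants, factors of histone transcription and 3′ end processing, and histone chaperones. In each of these lists 0 genes passed the adjusted threshold in edgeR's quasi-likelihood test. DESeq2 called 4 of them, H2afx, H2afy, Nasp and Chaf1a, the likelihood ratio test called H2afy, Nasp and Chaf1a, and limma-voom called 0. These are 4.76% and 3.57% of the 84 tested list genes, near the 4.21% and 3.43% of all genes that the same tools called.

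Replacement variants can be made outside S phase from polyadenylated mRNAs, and H2afx also gives a stem-loop mRNA in S phase. Of 11 listed, 6 had negative values and the median was -0.01. Of these, 2 had an unadjusted p below 0.05, both lower, where 6.51% of all genes were lower at that line. H2afx, the variant phosphorylated at DNA breaks, had 387, 536 and 264 CPM in wild type and 158, 191 and 241 CPM in the libraries labelled knockout, a log2 fold change of -1.01 (SE 0.30, edgeR adjusted p = 0.240). H2afy, which encodes macroH2A1, had a value of -1.38 (SE 0.38, edgeR adjusted p = 0.216). For H2afx and H2afy the groups did not overlap. H2afz had -0.14, H3f3a 0.31, H3f3b 0.08 and the linker variant H1f0 0.45.

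Of 40 genes for histone transcription and 3′ end processing, 22 had negative values and the median was -0.09. At an unadjusted p below 0.05, 4 were lower and 1 was higher, where 6.51% and 5.36% of all genes were. Npat had 40.6, 54.6 and 50.9 CPM in wild type and 24.2, 31.3 and 12.4 CPM in the libraries labelled knockout, with no overlap and a log2 fold change of -1.10 (SE 0.40, edgeR adjusted p = 0.325). The other lower ones were Cpsf2, a cleavage subunit, at -0.53, the exonuclease Eri1 at -0.74 and the cap-binding Ncbp1 at -0.83. Lsm10 had 45.0, 48.1 and 21.5 CPM against 66.2, 56.0 and 129 CPM, without overlap and at a value of 1.13 (SE 0.43, edgeR adjusted p = 0.353). Slbp had a value of -0.36 and Lsm11 0.11. Casp8ap2, a partner of Npat, had 72.0, 76.1 and 74.8 CPM in wild type and 75.7, 46.1 and 5.19 CPM in the libraries labelled knockout, so replicate 6 was far the lowest.

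Of 33 chaperones and assembly factors, 29 had negative values, the median was -0.50, and 11 had an unadjusted p below 0.05, all lower, where 6.51% of all genes did. Nasp, which holds the reserve of H3 and H4, had 130, 124 and 123 CPM in wild type and 79.3, 62.1 and 60.3 CPM in the libraries labelled knockout, a log2 fold change of -0.90 (SE 0.22, edgeR adjusted p = 0.168). Chaf1a, the large subunit of the replication-coupled assembly factor CAF-1, had 98.1, 214 and 204 CPM against 76.6, 78.2 and 36.2 CPM, a value of -1.43 (SE 0.40, edgeR adjusted p = 0.220). The other 9 were Ssrp1, Hat1, Tonsl, Mms22l, Nap1l1, Dnajc9, Anp32e, Ncl and Set, with values between -1.33 (Tonsl) and -0.56 (Set). Asf1b had a value of -0.82 and Chaf1b -0.10.

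Genes of the replication fork act in the same phase as the histone genes. The 20 listed summed to 7668, 7526 and 7072 CPM in wild type and 3678, 4160 and 4514 CPM in the libraries labelled knockout. All 20 had negative values with a median of -0.90, where 50.4% of all genes tested were negative. At an unadjusted p below 0.05 there were 15, all lower, where 6.51% of all genes were lower at that line. The groups did not overlap for 15, all lower, where 11.3% of all genes did so. They overlapped for 5 (Tyms, Gins2, Cdt1, Dut and Fen1). By edgeR's quasi-likelihood test 0 passed the adjusted threshold. In replicate 6 the summed fork genes lay below every wild-type library. The summed histone cluster genes, at 689 CPM, lay above every one, but a few genes weighed heavily in that sum. Hist1h2ae gave 127, Hist1h1e 71.6 and Hist1h4d 56.9 CPM of it, against at most 79.9, 26.5 and 29.4 CPM in wild type. The median deviation of a member in replicate 6 was -0.02. That library was the highest for 17 of 52 tested members and the lowest for 9. The part of the fork genes in the histone values was not tested.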

How the data were processed

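RNA of 6 libraries was analysed. The authors deposited raw counts per gene with exon lengths in 1 table. The submitters' processing notes name the build mm10, the aligner STAR 2.5, the trimmer Trimmomatic 0.40, edgeR 3.28.1, MultiQC 0.11.5 and FastQC. cDNA was made with SMART-Seq v4 and libraries with Nextera XT, per the labels' protocols, which does not mark strand. Strand setting, multi-mapping rule and gene filter are not stated there.

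Counts were tested in R 4.3.3 with edgeR 4.0.16: genes kept by filterByExpr (minimum 10), TMM scaling, robust quasi-likelihood fit, two-sided test, Benjamini-Hochberg adjustment over 12603 genes, threshold 0.05. The standard error is the log2 fold change divided by the root of F. RPKM divides CPM by the table's exon length. Alternatives were RLE and upper-quartile scaling, other filters (none, or 50 counts in all), DESeq2 1.42.0, the likelihood ratio test, limma-voom 3.58.1 and each library left out. The CPM that 3 counts stand for covers counting error only. Stem-loops and shared stretches came from GENCODE M21, promoters from RefSeq.

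Members, lists and tests were chosen with earlier results of these data known. Named were the 3 members of each family with the most counts, members at an unadjusted p below 0.05, list genes at that line, 14 listed genes and Pcgf2. Any other gene given with values was named after they were seen, whether or not its sentence says so. Not in the table were H2afb1, H1fnt, H1foo, Hils1, Zfp100 and Pax5.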

Additional observations from a re-analysis of the deposited data

How the results depend on the processing

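In the alternatives run (other scaling, other filters, 3 other tests, each library left out), 0 histone cluster genes passed an adjusted p of 0.05. Members at an unadjusted p below 0.05 numbered 3 with DESeq2, 4 with the likelihood ratio test and 3 with limma-voom, and between 0 and 2 with a library left out. The members' median log2 fold change was -0.97 with limma-voom and lay between -0.99 and -0.50 with a library left out, the former without knockout replicate 6. It was 0.15 above and -0.91 up to 700 bases of exon length, 0.22 for genes with long transcripts and -0.96 for those ending near the stem-loop, and 0.26 from and -1.10 below 5 CPM. DESeq2 called 4 genes of the other histone lists and the likelihood ratio test 3. With limma-voom the sign turned for Hist1h2ae (-0.029), Hist1h4d (-0.059) and Lsm11 (-0.044). With single libraries left out, signs also turned, over these ranges: Hist1h1c -0.52 to 0.010, Hist1h1e -0.34 to 1.09, Hist1h2ae -0.66 to 0.59, Hist2h2be -0.40 to 0.71, Hist2h3b -0.45 to 0.019, Hist1h4d -0.90 to 0.78, Lsm11 -0.12 to 0.45, H2afz -0.42 to 0.022, H3f3b -0.10 to 0.31 and H1f0 -0.020 to 0.70. The cause of these turns was not tested. Members under 5 CPM rest on few counts. No paired analysis was possible because the groups share no replicate numbers.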
